A study of Mus musculus with 8 samples.

Results

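The genes described here are those of the integrated stress response and of the unfolded protein response. They were taken from a list of 34 genes picked by their known roles in these pathways, and 30 of them had a probe set of their own, among 18782 genes measured in this way (where a gene had several probe sets, the one with the highest mean signal). Gene expression was profiled in thoracic perivascular adipose tissue, the fat around the thoracic aorta. There were 4 arrays labelled RictoraP2KO and 4 labelled control, 1 sample on each array. By its name the first group lacks Rictor wherever Cre driven from the aP2 (Fabp4) promoter has acted, which is in fat and, by the series title, also in brain. Control mice are labelled Rictorfl/fl: their Rictor alleles are floxed and, with no Cre named, intact. All mice were male, 17 to 22 weeks old, starved overnight and killed at 9 am without other treatment. Whether each sample came from a separate animal is not in the labels, so the p-values describe only how these 8 samples spread. Values are log2 RMA signals (background-corrected, quantile-normalised and summarised by probe set), a difference is the RictoraP2KO mean minus the control mean of these log2 values, and levels of different genes cannot be compared.

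The integrated stress response begins when kinases that sense amino acid shortage, misfolded protein, haem shortage or viral RNA phosphorylate the translation factor eIF2. General translation then slows while the mRNA of Atf4 is translated more, and the ATF4 protein induces genes for amino acid synthesis and uptake, for one-carbon metabolism and for feedback on the response itself. The unfolded protein response of the endoplasmic reticulum (ER) shares that arm through the kinase PERK and adds the sensors IRE1, which splices the mRNA of Xbp1, and ATF6; these raise ER chaperones and the machinery of ER-associated degradation (ERAD). The pathway touches the biology of Rictor because Rictor defines mTOR complex 2, which phosphorylates Akt, while several ATF4 targets restrain mTOR complex 1 or Akt. The list was divided by these roles into an ATF4 arm and an ER arm of sensors, Xbp1, chaperones and ERAD genes. In the ATF4 arm 18 of 21 genes were measured, and in the ER arm 12 of 13. The genes Atf5, Ddit3 and Pdia4 share their probe sets with another gene in the array annotation, Gdf15 has no probe set listed in it, and these 4 were not analysed here.

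The 2 arms differ in the elements that their promoters are known for, and the stretches around these elements are shown. The genes were placed in the arms by known roles, so the counts below describe the list and do not test its division. Not every gene held the element of its arm. Promoter windows of 300 bases, from 250 before to 50 after the annotated gene start, were taken from RefSeq (GRCm38.p6) and matched 32 of the 34 genes by symbol. A total of 4 motifs were searched on both strands: the C/EBP-ATF response element CARE (TGATGNAA), which ATF4 binds with a C/EBP partner, the ER stress response element ERSE (CCAAT and CCACG with 9 bases of any kind between them), the related ERSE-II (ATTGG and CCACG with 1 base of any kind between them), and the unfolded protein response element UPRE (TGACGTGG). In the lines below, read 5′ to 3′ on the strand of the gene, capitals mark the matches. A match on the opposite strand appears as its reverse complement. The first 6 genes belong to the ATF4 arm and the others to the ER arm.
Asns (chr6:7693210-7693252, minus strand): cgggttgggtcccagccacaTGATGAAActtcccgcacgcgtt
Chac1 (chr2:119351029-119351076, plus strand): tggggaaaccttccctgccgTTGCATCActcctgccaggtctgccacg
Slc7a11 (chr3:50443633-50443699, minus strand): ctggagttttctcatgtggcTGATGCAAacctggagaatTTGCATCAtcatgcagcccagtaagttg
Fgf21 (chr7:45615602-45615649, minus strand): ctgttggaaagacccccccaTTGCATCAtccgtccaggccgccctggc
Nupr1 (chr7:126625553-126625600, minus strand): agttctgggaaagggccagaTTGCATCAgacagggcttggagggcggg
Vldlr (chr19:27216800-27216847, plus strand): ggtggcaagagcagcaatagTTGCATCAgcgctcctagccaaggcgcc
Hspa5 (chr2:34772005-34772063, plus strand): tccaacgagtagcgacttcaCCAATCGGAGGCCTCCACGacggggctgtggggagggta
Hsp90b1 (chr10:86705513-86705676, minus strand): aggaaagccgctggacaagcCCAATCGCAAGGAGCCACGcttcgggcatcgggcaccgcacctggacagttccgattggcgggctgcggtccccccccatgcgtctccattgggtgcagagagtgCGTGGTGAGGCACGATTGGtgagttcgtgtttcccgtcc
Calr (chr8:84847055-84847113, minus strand): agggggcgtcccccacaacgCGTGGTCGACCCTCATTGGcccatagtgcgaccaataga
Canx (chr11:50325780-50325838, minus strand): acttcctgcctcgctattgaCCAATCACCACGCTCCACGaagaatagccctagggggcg
Creld2 (chr15:88819500-88819558, plus strand): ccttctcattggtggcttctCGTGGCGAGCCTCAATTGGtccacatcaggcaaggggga
Pdia6 (chr12:17266471-17266529, plus strand): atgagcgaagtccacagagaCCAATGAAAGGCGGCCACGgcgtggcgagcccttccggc
Herpud1 (chr8:94386297-94386407, plus strand): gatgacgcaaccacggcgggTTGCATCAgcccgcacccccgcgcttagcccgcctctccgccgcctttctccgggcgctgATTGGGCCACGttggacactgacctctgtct
The CARE motif was found in 7 of the 20 ATF4 arm genes with a window and in 1 of 12 ER arm genes, against 4.51% of all 27025 genes with a window. In Trib3 the match lay within the transcript, from base 15 to base 22 after the start. Vldlr had 2 windows, of which 1 held it. The ERSE was found in 6 of 12 ER arm genes and in 0 of 20 ATF4 arm genes, against 0.137% of all genes with a window. Hsp90b1, which encodes the ER chaperone GRP94, held 2 of them. The ERSE-II occurred in Herpud1, a gene of ERAD that also held the CARE counted above (ERSE-II was in 0.0444% of all genes with a window). No listed gene had a UPRE match (0.714% of all genes with a window). Atf4, Sesn2 and Mthfd2 had none of the 4 motifs in these windows, which says only that these letters are not there.

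**Figure D1:**
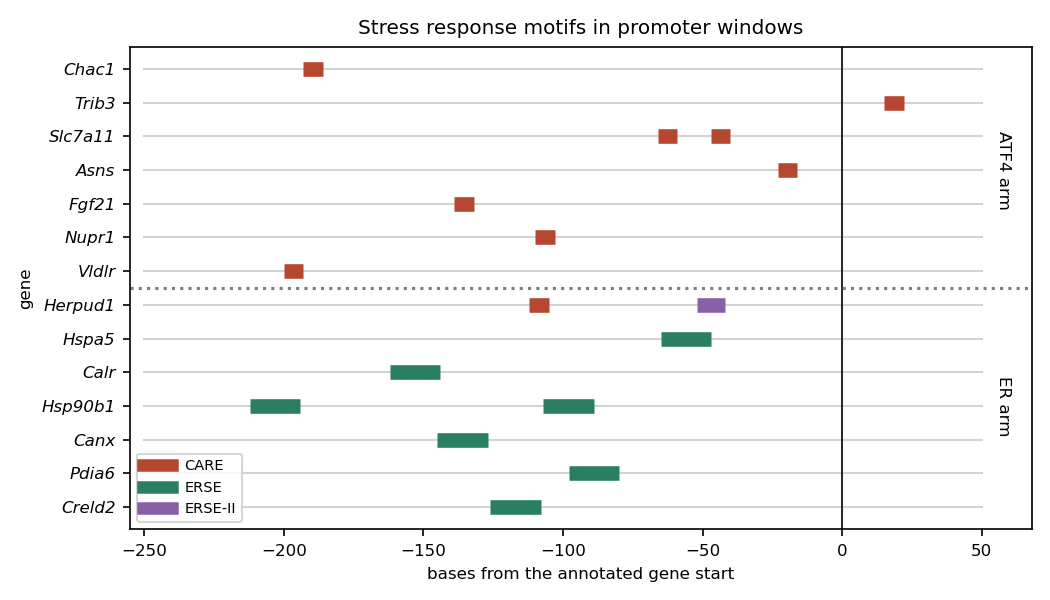
Position of motif matches in the promoter windows of listed genes that hold at least 1 match, with bases from the annotated gene start on the x axis (negative values are upstream) and genes on the y axis. Bars mark CARE, ERSE and ERSE-II matches; ERSE matches begin between 212 and 65 bases upstream in 6 ER arm genes, and CARE matches lie mostly in ATF4 arm genes.

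The arrays did not show the deletion of Rictor in this tissue. Rictor had a signal of 6.68 ± 0.08 in arrays labelled RictoraP2KO and 6.54 ± 0.06 in control arrays (SD, n = 4 each; difference 0.14, limma adjusted p = 0.685), so the first group did not have the lower signal, and every direction given here rests on the labels. The annotation does not say where in the transcript the probes lie. Adipocyte markers had mean log2 signals of 10.01 to 10.29 in the RictoraP2KO arrays and 9.99 to 10.07 in the control arrays. Brown fat markers had a mean of 9.64 in RictoraP2KO replicate 1 and of 9.96 to 10.46 in the other 7 arrays. In that array Elovl3 was 6.84, against 8.29 to 10.75 in the others, and Lep was 5.81, against 2.74 to 3.75. It is not among the 3 arrays named next and stayed in the fits without them. In 3 arrays markers of another tissue stood out. Skeletal muscle markers were high in RictoraP2KO replicate 2 (list mean 1.33 above the mean of the 8 arrays, against -0.25 to -0.08 in the other 7), lung epithelial markers in control replicate 2 (2.53, against -0.51 to -0.27) and neuron markers in control replicate 3 (1.18, against -0.30 to -0.09). In bulk tissue, fewer cells of a type and less RNA per cell cannot be told apart. Results that rest on these arrays are given with and without them.

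No gene of the stress response list differed between the groups by the test used, limma at a threshold of 0.05 on p-values adjusted (Benjamini-Hochberg) across the 28371 probe sets of the array. The count was 0 of 30, where 0.00352% of all probe sets passed, and the smallest adjusted p in the list was 0.651. At an unadjusted p under 0.05 there were 2 listed genes, Sesn2 and Chac1, both higher in RictoraP2KO, where 2.92% of all genes were higher and 3.56% lower at that level (6.48% in either direction). The groups did not overlap in 1 of 30 genes, Sesn2, where 1.5% of all genes were higher and 2.07% lower without overlap. Differences were above 0 in 23 of the 30 genes, with a median of 0.07, against 46.8% of all genes above 0 and a median of -0.008. The count depended on 1 array: without RictoraP2KO replicate 2, 15 of 30 genes were above 0 and the median was -0.0018. With all 3 arrays in which another tissue stood out omitted, 15 of 30 were above 0, and no gene passed the adjusted test or had an unadjusted p under 0.05.

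**Figure D2:**
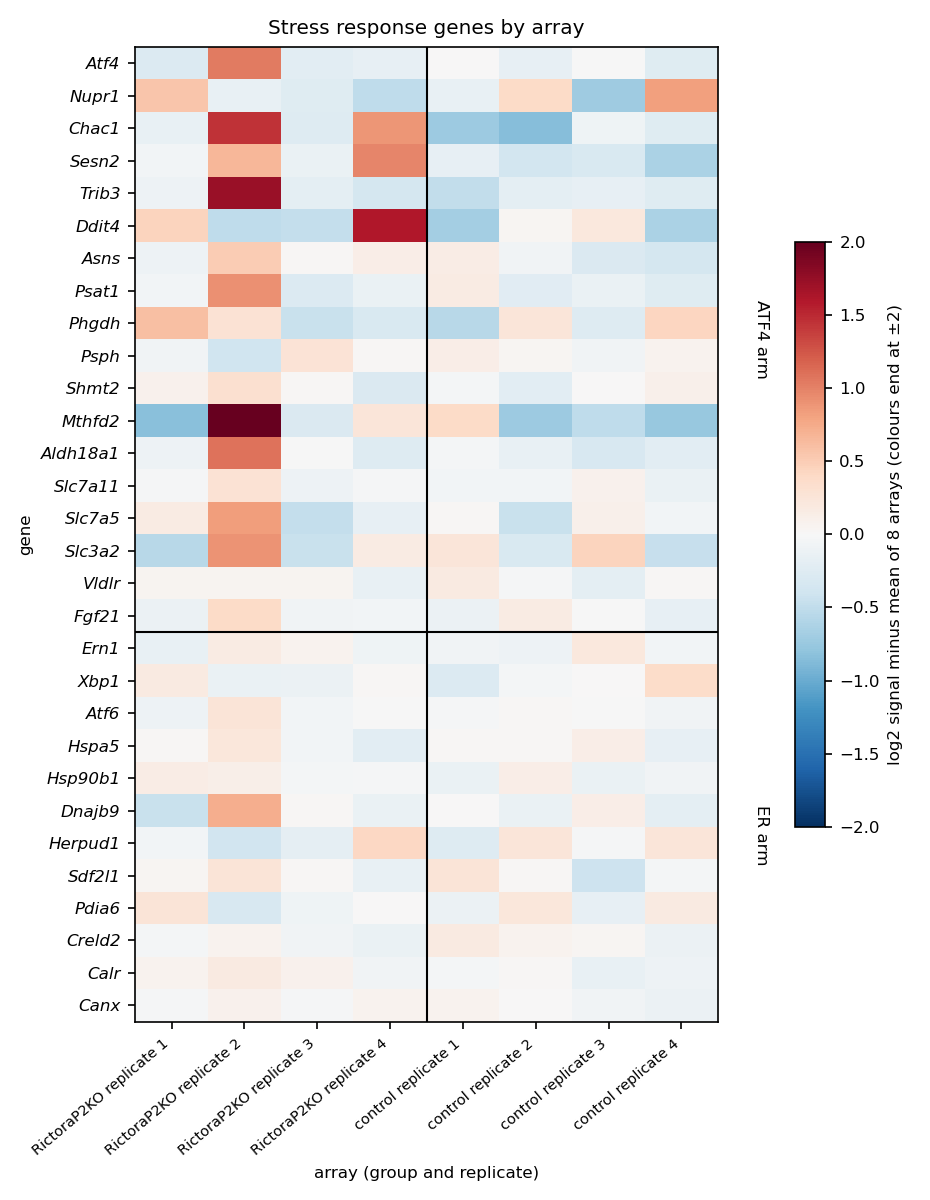
Log2 signal of the 30 measured genes (rows) in the 8 arrays (columns, RictoraP2KO on the left), each minus the mean of the gene over the arrays, with the ATF4 arm above the line and the ER arm below it. RictoraP2KO replicate 2 is the highest array for 12 of the 18 ATF4 arm genes, and the ER arm varies little.

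Among the transcription factors, Atf4, the central activator, had signals of 5.70, 7.02, 5.77 and 5.81 in RictoraP2KO replicates 1 to 4, against 5.98, 5.81, 5.97 and 5.73 in control replicates 1 to 4. Only RictoraP2KO replicate 2 was high, and the other 3 arrays of that group lay within or just below the range of the controls. Over all arrays it differed by 0.20 (SE 0.27; limma adjusted p = 0.89), and -0.11 without that array. Because ATF4 is controlled mainly at translation, its mRNA level is not a measure of the protein. Nupr1, a small chromatin-associated protein induced by stress, had signals of 7.39, 6.68, 6.60 and 6.32 in RictoraP2KO arrays, against 6.69, 7.22, 6.12 and 7.66 in control arrays. It varied more widely in the controls than in the other group, and the difference of -0.17 (limma adjusted p = 0.93) was smaller than the spread between replicates.

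The 4 genes that act as brakes or effectors of the response, Sesn2, Chac1, Trib3 and Ddit4, had 4 of the 5 largest differences of the list, the other being that of Mthfd2. Sesn2 encodes sestrin 2, a leucine sensor that restrains mTOR complex 1. It had signals of 6.87, 7.58, 6.79 and 7.90 in RictoraP2KO arrays, against 6.76, 6.56, 6.61 and 6.29 in control arrays. All 4 RictoraP2KO arrays were above all 4 controls, but replicates 1 and 3 only narrowly. The difference was 0.73 (SE 0.243; interval at the 95% level 0.18 to 1.28; limma unadjusted p = 0.0151, adjusted p = 0.651) and ranged from 0.52 to 0.90 when single arrays were left out. Chac1 encodes an enzyme that degrades glutathione. It had signals of 4.89, 6.49, 4.78 and 5.93 in RictoraP2KO arrays, against 4.31, 4.19, 4.96 and 4.80 in control arrays. Replicates 2 and 4 of RictoraP2KO were above every control, replicates 1 and 3 were within their range, and the difference was 0.96 (SE 0.376; limma unadjusted p = 0.032, adjusted p = 0.668), or 0.63 without replicate 2.

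Trib3 and Ddit4 were highest in different arrays. Trib3 encodes a pseudokinase that binds Akt and dampens ATF4. Its signals were 5.47, 7.30, 5.37 and 5.22 in RictoraP2KO arrays, against 5.08, 5.37, 5.41 and 5.33 in control arrays. With replicate 2 set aside the groups overlapped, replicate 1 being slightly above every control, and the difference of 0.54 (SE 0.411; limma adjusted p = 0.807) became 0.05. Ddit4 encodes REDD1, an inhibitor of mTOR complex 1 that also responds to glucocorticoids and low oxygen. Its signals were 7.06, 6.11, 6.13 and 8.21 in RictoraP2KO arrays, against 5.94, 6.65, 6.82 and 5.98 in control arrays. Here replicates 4 and 1 were above every control while replicates 2 and 3 lay within the control range. The difference was 0.53 (SE 0.451; limma adjusted p = 0.827), 0.09 without replicate 4 and 0.79 without replicate 2. RictoraP2KO replicate 4 was thus the highest array for Sesn2 and Ddit4 and the second highest for Chac1, while its Atf4, Trib3 and Psat1 signals lay within the range of the controls.

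**Figure D3:**
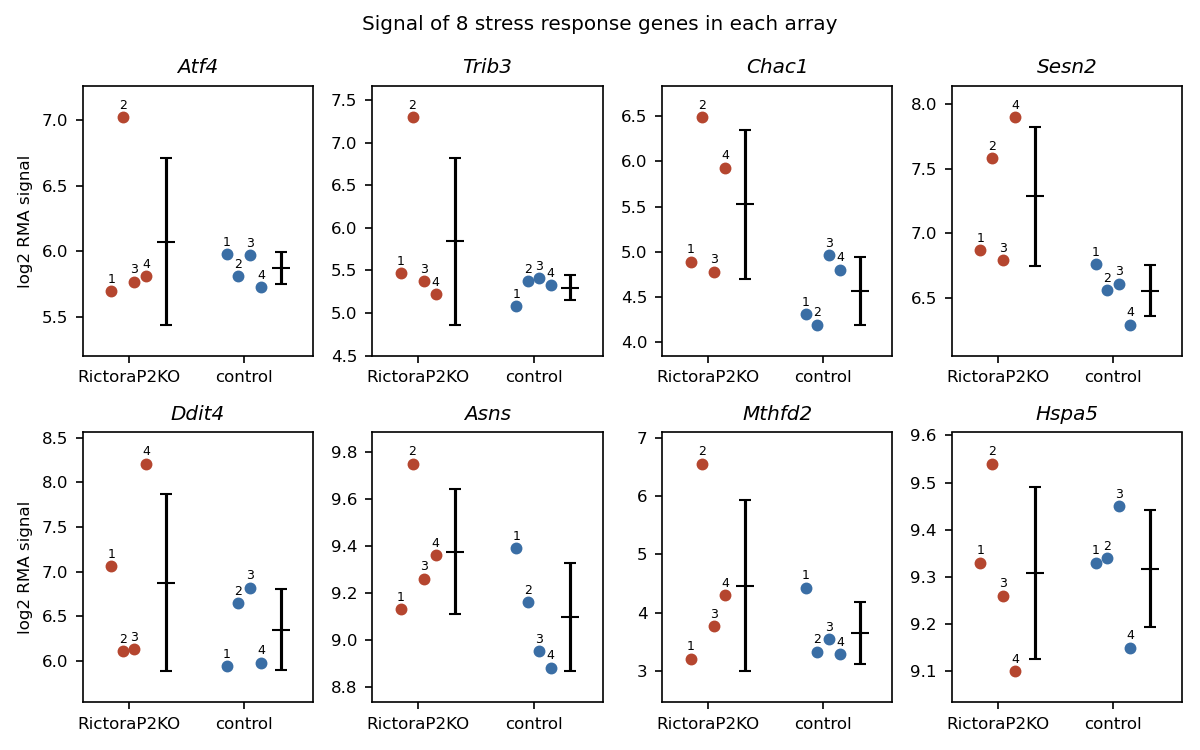
Log2 RMA signal (y axis, a separate scale for each gene) of 8 stress response genes in RictoraP2KO arrays (left) and control arrays (right); points are arrays numbered by replicate, and the black bars give the mean ± SD of 4 arrays. RictoraP2KO replicate 2 is the highest point for Atf4, Trib3, Chac1, Asns, Mthfd2 and Hspa5, and replicate 4 for Sesn2 and Ddit4.

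Of the enzymes of amino acid synthesis and one-carbon metabolism, 0 of 7 passed the test in either direction. Differences were above 0 for 6 of 7, where 46.8% of all genes were above 0. Asns, asparagine synthetase, whose CARE is shown above, had signals of 9.13, 9.75, 9.26 and 9.36 in RictoraP2KO arrays, against 9.39, 9.16, 8.95 and 8.88 in control arrays. Control replicate 1 was higher than every RictoraP2KO array except replicate 2, and the difference was 0.28 (SE 0.154; limma adjusted p = 0.747), 0.15 without replicate 2 and 0.11 without the 3 arrays. Mthfd2, the mitochondrial folate enzyme, had signals of 3.21, 6.56, 3.77 and 4.30 in RictoraP2KO arrays, against 4.43, 3.33, 3.54 and 3.29 in control arrays. Replicate 2 stood 3.02 above the median of the other 7 arrays, and without it the difference of 0.81 (SE 0.644; limma adjusted p = 0.815) became 0.11. In those other 7 arrays the Mthfd2 signals, 3.21 to 4.43, lay on both sides of the array median of 3.76. Aldh18a1, which makes the precursor of proline, was 5.76 in replicate 2 and 4.42 to 4.67 in the other RictoraP2KO arrays, against 4.35 to 4.64 in control arrays. Its difference was 0.36, and 0.06 without replicate 2.

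The enzymes of the serine pathway did not move as a set. Phgdh catalyses the step from 3-phosphoglycerate, Psat1 the transamination and Psph the final dephosphorylation, while Shmt2 passes the carbon of serine to folate in mitochondria. Psat1 was 4.33 in RictoraP2KO replicate 2 and 3.14 to 3.37 in the other arrays of that group, against 3.17 to 3.59 in control arrays. Its mean signal was under the array median of 3.76, so it was dim. Phgdh was 4.86, 4.54, 3.81 and 3.96 in RictoraP2KO arrays, against 3.70, 4.50, 4.00 and 4.69 in control arrays. Its values spread as widely within each group as between them, with a difference of 0.07 (SE 0.279; limma adjusted p = 0.973), and its other 2 probe sets gave 0.19 and -0.11. Psph went the other way in replicate 2, with 4.80 there and 5.13 to 5.46 in the other RictoraP2KO arrays, against 5.13 to 5.32 in control arrays; its difference was -0.08. Shmt2 differed by 0.07, with signals of 5.37 to 5.97 in RictoraP2KO arrays and 5.45 to 5.76 in control arrays. Over these 3 enzymes of serine synthesis, Shmt2 and Mthfd2 the median difference was 0.07, and -0.01 without replicate 2.

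All 3 amino acid transporter genes were highest in RictoraP2KO replicate 2, the highest array for 15.6% of all genes. Slc3a2, the heavy chain that carries several light chains to the membrane, was 8.88, 10.33, 8.98 and 9.60 in RictoraP2KO arrays, against 9.67, 9.13, 9.87 and 8.97 in control arrays. Apart from replicate 2 the highest arrays were controls 3 and 1, and the difference of 0.04 (SE 0.331; limma adjusted p = 0.987) became -0.26 without replicate 2. Slc7a5, its light chain LAT1 for large neutral amino acids, was 4.77 in replicate 2 and 3.47 to 4.11 in the other RictoraP2KO arrays, against 3.50 to 4.05 in control arrays. Slc7a11, the light chain xCT that takes up cystine, was dim, with signals of 1.93 to 2.31 in RictoraP2KO arrays and 1.90 to 2.12 in control arrays. Vldlr, the receptor for triglyceride-rich lipoproteins, differed by 0.004 (SE 0.0877), with signals of 8.51 to 8.71 in RictoraP2KO arrays and 8.46 to 8.83 in control arrays. Fgf21, a hormone secreted by stressed liver and fat, was dim too, at 2.33 to 2.83 in RictoraP2KO arrays and 2.28 to 2.61 in control arrays.

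In the ER arm the differences of the sensor genes Ern1 and Atf6, and of Xbp1, were smaller than their SE. Ern1, which encodes IRE1, differed by 0.009 (SE 0.0955), Atf6 by 0.04 (SE 0.083) and Xbp1 by -0.03 (SE 0.132), with limma adjusted p-values of 0.99, 0.928 and 0.976. Xbp1 signals were 8.69, 8.38, 8.40 and 8.54 in RictoraP2KO arrays, against 8.25, 8.47, 8.52 and 8.88 in control arrays, so the lowest and the highest array were both controls. The array measures total Xbp1 mRNA, and splicing by IRE1 cannot be read from it.

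Hspa5 encodes BiP, the main ER chaperone, and is the usual marker of the unfolded protein response. Its signals were 9.33, 9.54, 9.26 and 9.10 in RictoraP2KO arrays, against 9.33, 9.34, 9.45 and 9.15 in control arrays. The groups overlapped throughout, and the difference was -0.0088 with an interval from -0.24 to 0.22. Calr, the lectin chaperone calreticulin, had the smallest p of this arm, with 9.28, 9.39, 9.29 and 9.14 in RictoraP2KO arrays, against 9.17, 9.23, 9.06 and 9.11 in control arrays. That difference was 0.13 (SE 0.0707; limma unadjusted p = 0.0968, adjusted p = 0.741). Canx, its membrane-bound relative, differed by 0.05, Hsp90b1 by 0.10, Pdia6, a disulfide isomerase, by -0.07, Creld2, an ER stress-induced secreted protein, by -0.09 and Sdf2l1, a partner of BiP, by 0.08. Among the 6 measured genes with an ERSE the differences lay between -0.09 and 0.13, with 3 above 0.

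Dnajb9 and Herpud1 had the largest SD within the RictoraP2KO group among ER arm genes. Dnajb9 encodes ERdj4, a co-chaperone of BiP. It was 8.90, 10.06, 9.37 and 9.21 in RictoraP2KO arrays, against 9.35, 9.20, 9.47 and 9.15 in control arrays. It was the 1 ER arm gene for which RictoraP2KO replicate 2 lay at least 0.5 above the median of the other 7 arrays (0.86), and its difference was 0.09 (SE 0.216), or -0.13 without that array. Herpud1, which organises the ERAD complex, was 8.92, 8.59, 8.80 and 9.39 in RictoraP2KO arrays, against 8.72, 9.22, 8.95 and 9.21 in control arrays. Replicate 2 was the lowest of all arrays for this gene, whose promoter window holds a CARE, and the difference was -0.10 (SE 0.177).

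Set side by side, the ATF4 arm had a median difference of 0.19 with 16 of 18 genes above 0, and the ER arm one of 0.03 with 7 of 12 above 0. Over all genes 46.8% were above 0. Differences ran from -0.17 to 0.96 in the ATF4 arm and from -0.10 to 0.13 in the ER arm. Without RictoraP2KO replicate 2 the median of the ATF4 arm was -0.01 with 8 of 18 above 0, and that of the ER arm 0.0094 with 7 of 12 above 0. The mean of the ATF4 arm minus that of the ER arm, with each gene centred on its mean over the arrays, was -0.02, 0.56, -0.15 and 0.12 in RictoraP2KO arrays, against -0.07, -0.20, -0.09 and -0.15 in control arrays. Replicates 1, 2 and 4 of RictoraP2KO were above all controls and replicate 3 was not, and the difference of the means was 0.25, or 0.11 without replicate 2. Macrophage markers were likewise above all controls in replicates 1, 2 and 4 and not in replicate 3, with list means of 0.41, 0.27, -0.26 and 0.21 in RictoraP2KO arrays, against 0.01, -0.27, -0.28 and -0.09 in control arrays. All 10 of these markers had a difference above 0, with a median of 0.33. An unadjusted limma p under 0.05 was reached by 3 of them, where 2.92% of all genes were higher at that level. The adjusted test was passed by 0. Their part in the ATF4 arm signal was not tested. No p-value is given for the contrast of the arms, since the genes were chosen with results of these data known. The arms also differed in spread: the median SD of a gene within the RictoraP2KO group was 0.54 in the ATF4 arm and 0.15 in the ER arm, and 0.18 and 0.11 without replicate 2. In the control group it was 0.20 in the ATF4 arm and 0.14 in the ER arm.

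**Figure D4:**
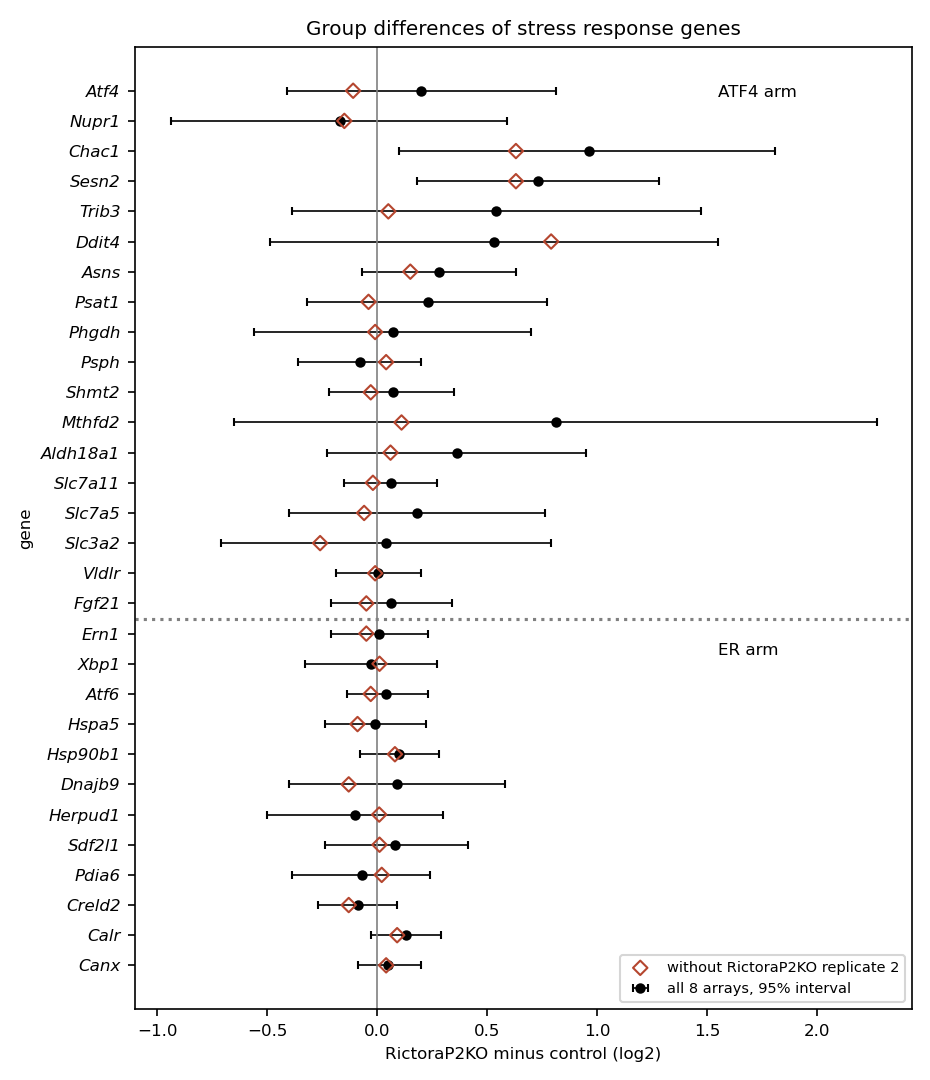
Difference between RictoraP2KO and control (x axis, log2) for each of the 30 genes (y axis), as filled points with the 95% interval of the limma fit over 8 arrays, and as open diamonds without RictoraP2KO replicate 2. For Trib3 the difference is 0.54 with replicate 2 and 0.05 without it; without it Chac1 and Sesn2 are both at 0.63, against 0.96 and 0.73 over all arrays, and Ddit4 is at 0.79, against 0.53.

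RictoraP2KO replicate 2 was the one array in which many genes of the ATF4 arm were high together. It was the highest of the 8 arrays for 12 of 18 ATF4 arm genes (66.7%) and for 6 of 12 ER arm genes (50%), where it was the highest for 15.6% of all genes. It lay at least 0.5 above the median of the other 7 arrays for 11 ATF4 arm genes and 1 ER arm gene, where it did so for 3.46% of all genes. The median excess was 0.70 in the ATF4 arm, 0.18 in the ER arm and 0.09 in the other ATF4 targets of the wider pathway. This was so with a CARE and without it: replicate 2 was the highest array for 5 of the 7 measured ATF4 arm genes with the motif and for 6 of the 10 measured genes whose windows lacked it. The array was singled out after its values were seen, and these counts are a description of 1 sample.

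Markers of other tissues moved with the same array. Replicate 2 was the highest array for 10 of 11 skeletal muscle markers, with list means of -0.25 to 1.33 in RictoraP2KO arrays and -0.23 to -0.08 in control arrays. It was the highest for 7 of 9 cardiac muscle markers (list means -1.19 to 1.47, against -0.78 to 0.62 in control arrays) and for 9 of 9 B cell markers (-0.30 to 0.69, against -0.34 to 0.16 in control arrays). RMA signals have no true 0, so no marker could be called absent. The part of these tissues in the stress gene signal was not tested. Early genes induced by handling were mixed in replicate 2. It was the highest array for 2 of 10, Dusp1 (10.17) and Ier3 (4.68), where it was the highest for 15.6% of all genes. Fosb (4.22) was below every control there, and the others, among them Fos (5.46) and Egr1 (7.16), were inside the control range. The list mean was -0.11, inside the range of the controls from -0.32 to 0.62. In RictoraP2KO replicate 4, the array high for Sesn2 and Ddit4, skeletal muscle markers stood at -0.19 and B cell markers at 0.13, both inside the range of the controls. Macrophage markers (0.21) and plasma cell markers (0.24) were above every control there, as the controls reached 0.01 for macrophage and 0.06 for plasma cell markers. The plasma cell mean in replicate 4 rested mostly on Irf4, at 10.03 against 5.81 to 8.31 in control arrays. Irf4 was above every control in all 4 RictoraP2KO arrays (8.33 to 10.03), where 1.5% of all genes were higher without overlap. Its difference was 1.47 (limma unadjusted p = 0.0277, adjusted p = 0.668). In replicate 4 Tnfrsf17 and Pou2af1 were also above every control, while Jchain, Mzb1, Sdc1, Prdm1 and Tnfrsf13b were below the highest control.

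**Figure D5:**
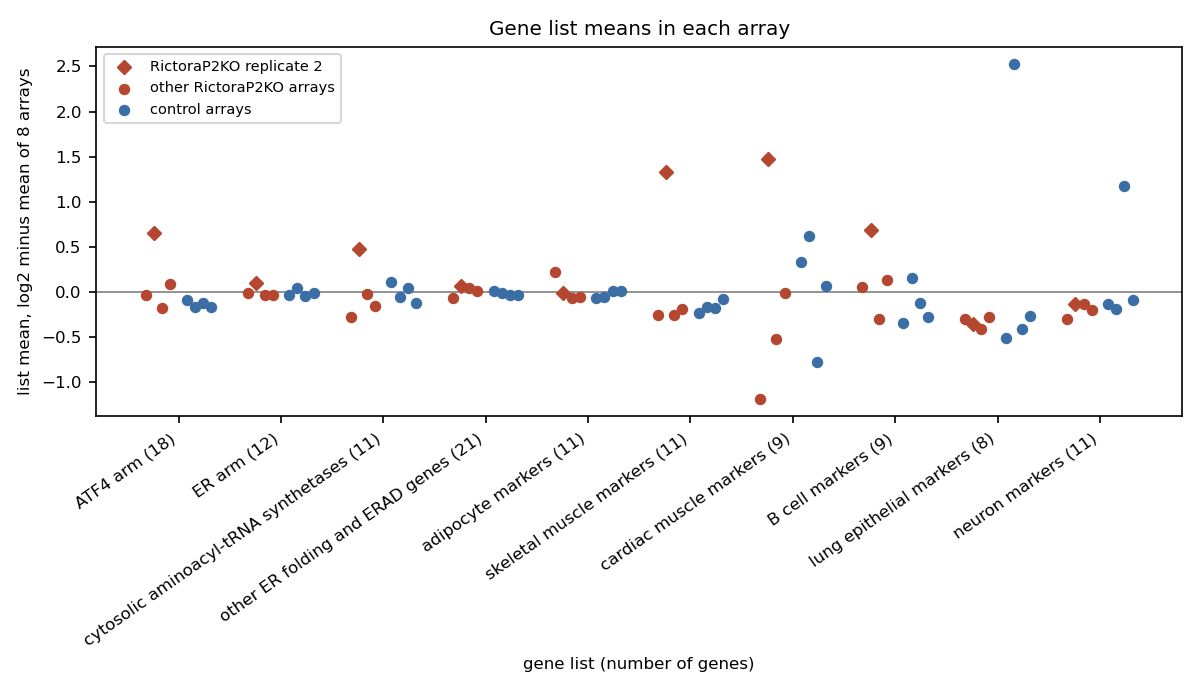
Mean of each gene list in each array (y axis, log2 signal minus the mean of the gene over 8 arrays, averaged over the list) for stress response lists and tissue markers (x axis, number of genes in brackets), with RictoraP2KO arrays left of control arrays. RictoraP2KO replicate 2 (diamond) is high for the ATF4 arm (0.66), aminoacyl-tRNA synthetases (0.48), skeletal muscle (1.33), cardiac muscle (1.47) and B cell markers (0.69), and close to the others for the ER arm (0.10).

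The wider pathway, 65 measured genes of 70 listed in 5 groups, gave 0 genes past the adjusted threshold, 0 at an unadjusted p under 0.05 higher and 1 lower, where 2.92% of all genes were higher and 3.56% lower. Differences were above 0 in 34 of 65 with a median of 0.0052, where 46.8% of all genes were above 0. The single gene was Sil1, the nucleotide exchange factor of BiP, at -0.13 (SE 0.0587; limma unadjusted p = 0.0475, adjusted p = 0.685), in a list of 21 other ER folding and ERAD genes with a median of 0.0047. In that list Pdia3, a disulfide isomerase, differed by 0.15, Derl2, an ERAD channel protein, by 0.12 and Sec61b, of the translocon, by -0.11. Upstream of ATF4, among 13 genes of eIF2 and its kinases and phosphatases, the kinase genes Eif2ak1 (HRI) and Eif2ak3 (PERK) differed by -0.08 and -0.09. The eIF2 subunit gene Eif2s2 differed by 0.10, and Ppp1r15a (GADD34), which directs phosphatase to eIF2, by 0.30, or 0.0046 without RictoraP2KO replicate 2. Without that array Eif2s2 differed by 0.0082 and Eif2ak3 by -0.03.

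Of the 11 cytosolic aminoacyl-tRNA synthetases, several of which are ATF4 targets, 9 were highest in RictoraP2KO replicate 2. That array, singled out after its values were seen, was the highest for 15.6% of all genes. Their list mean was -0.28, 0.48, -0.02 and -0.15 in RictoraP2KO arrays, against 0.11, -0.05, 0.04 and -0.12 in control arrays. Without replicate 2, 0 of 11 were above 0 and the median was -0.13. Over all arrays Eprs differed by 0.21, Gars by 0.13, Cars by -0.12 and Yars by -0.10. Without replicate 2 Eprs differed by -0.03, Gars by -0.01, Yars by -0.28 and Cars by -0.32 (limma unadjusted p = 0.00363, adjusted p = 0.761). Among 14 other ATF4 targets, Cth, which makes cysteine from cystathionine, differed by 0.66 (SE 0.356; limma adjusted p = 0.742), the arginine transporter gene Slc7a1 by 0.36, Cbs, the enzyme before Cth, by 0.40 and the alanine transaminase gene Gpt2 by -0.23. Without replicate 2 Cth differed by 0.35 and Slc7a1 by 0.08, and without RictoraP2KO replicate 4 Cbs differed by 0.07. Among 6 other bZIP genes, Cebpb differed by 0.10, Atf2 by 0.08, Nfe2l2, the regulator of antioxidant genes, by 0.08 and Cebpg, a dimer partner of ATF4, by 0.04. In none of these 5 groups did a gene pass the adjusted test.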

How the data were processed

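Thoracic perivascular fat was hybridised to 8 arrays, 4 labelled RictoraP2KO and 4 control, from 5 µg of total RNA per the labels' protocols. The deposited log2 values, 1 for each of 28371 probe sets and array, were produced by the authors by RMA (Affymetrix Power Tools 1.10.2), as the submitters' processing notes record. Array medians were 3.76 throughout and correlations between arrays 0.989 to 0.995. By the platform annotation 21158 probe sets had 1 symbol, 1881 had several and 5332 had no symbol; a gene was represented by its single-symbol probe set with the highest mean. The test, on every probe set, was a limma fit (version 3.58.1, R 4.3.3) with lmFit and eBayes, two-sided, Benjamini-Hochberg adjusted, at a threshold of 0.05, without filter or covariate. The number of arrays limits the precision. On simulated data for this comparison, 28371 probe sets with 200 of them changed, the fit found 50.8% of changes of 0.5 and 90.4% of changes of 1 on the log2 scale. The changed probe sets were random and the noise was normal, so these rates describe the array at large. Rates for ATF4 arm genes were not simulated. Their median SD within the RictoraP2KO group was 0.54, against 0.13 over all genes.

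The genes and lists were chosen with earlier results of these data known. The text names every measured listed gene, Rictor and, of each pathway list, the 4 genes with the smallest unadjusted p. Same-numbered replicates correlated between -0.154 and 0.087 in their deviations from group means, so the numbers were not taken as pairs. Alternatives were another quantile normalisation, median centring, a filter on dim probe sets, a block for replicate number, array weights, robust eBayes, limma-trend, omission of each array or of the 3 arrays in which another tissue stood out, the mean of all probe sets of a gene, and an adjusted p under 0.1. Counts at an unadjusted p under 0.05 and the excess of 1 array were added after seeing the data.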

Additional observations from a re-analysis of the deposited data

Results flagged for a closer look

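Dixon's test at the 95% level marked 12 of 106 groups of 4 arrays as holding an array far from the others, and chance marks about 5%. Among the 60 groups of the 30 stress response genes there were 5. In 3 of these the array was RictoraP2KO replicate 2: Atf4 was 7.02 there with the next array of its group at 5.81, Trib3 was 7.30 with the next at 5.47, and Fgf21, a dim probe set, was 2.83 with the next at 2.39. Vldlr was lowest in RictoraP2KO replicate 4, at 8.51 with the next at 8.70, and Ern1 was highest in control replicate 3, at 6.23 with the next at 5.97. Among genes of the wider pathway, RictoraP2KO replicate 2 was far above its group for Eprs (8.45, next 7.60), Eif2s2 (7.99, next 7.64) and Nfe2l2 (8.91, next 8.34). Control replicate 1 was lowest for Eprs (7.34, next 7.57) and highest for Slc7a1 (5.07, next 4.72). Control replicate 2, the array with high lung markers, was highest for Pdia3 (9.03, next 8.83) and Sec61b (5.26, next 5.16).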

How the results depend on the processing

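No stress response gene passed the adjusted test under any alternative (lowest adjusted p 0.431). The array-wide count of 1 probe set became 0 with the filter on dim probe sets, 0 with the replicate block, 0 without the 3 arrays with signal of another tissue, and 0 to 5 when single arrays were left out (5 without RictoraP2KO replicate 1; 0 without RictoraP2KO replicate 3 or 4 or any control). The count of 2 genes at an unadjusted p under 0.05 became 0 without the 3 arrays and 1 to 2 without single arrays (1 without replicate 2 of either group). Sesn2 kept an unadjusted limma p under 0.05 in all 8 of those fits; Chac1 did not without RictoraP2KO replicate 2 (0.0704) or 4 (0.0839) or control replicate 1 (0.0747) or 2 (0.0825), while Calr entered without RictoraP2KO replicate 4 (0.0328) and Asns without control replicate 1 (0.0353). Same-numbered samples did not pair, and the replicate block left the 0 and the 2 stress genes as they were. The ATF4 arm median ran from -0.01 (without RictoraP2KO replicate 2) to 0.31, the ER arm median from 0.0094 to 0.06 and the difference of arm means from 0.11 to 0.34 over single arrays left out; without the 3 arrays that difference was 0.09. With array weights the sign turned for Phgdh (-0.08) and Vldlr (-0.0038). Without the 3 arrays it turned for Atf4 (-0.09), Atf6 (-0.0098), Cebpg (-0.03), Dnajb9 (-0.09), Eif2s2 (-0.03), Herpud1 (0.07), Mthfd2 (-0.10), Nfe2l2 (-0.21), Pdia6 (0.02), Psat1 (-0.11), Sdf2l1 (-0.14), Shmt2 (-0.09), Slc3a2 (-0.17), Slc7a5 (-0.14) and Vldlr (-0.12). With single arrays left out, signs turned within these ranges: Atf4 -0.11 to 0.33, Atf6 -0.03 to 0.09, Cebpg -0.03 to 0.11, Dnajb9 -0.13 to 0.25, Eprs -0.03 to 0.31, Ern1 -0.05 to 0.08, Fgf21 -0.05 to 0.13, Gars -0.01 to 0.33, Herpud1 -0.26 to 0.0085, Hspa5 -0.09 to 0.06, Nfe2l2 -0.08 to 0.16, Nupr1 -0.44 to 0.07, Pdia6 -0.17 to 0.02, Phgdh -0.12 to 0.23, Psat1 -0.04 to 0.36, Psph -0.18 to 0.04, Sdf2l1 -0.04 to 0.18, Shmt2 -0.03 to 0.18, Slc3a2 -0.26 to 0.23, Slc7a11 -0.02 to 0.11, Slc7a5 -0.06 to 0.37, Vldlr -0.06 to 0.06, Xbp1 -0.12 to 0.09 and Yars -0.28 to 0.02. Of 507 alternative values for the 30 genes, 456 kept their direction and 51 did not, and 20 of the 30 genes turned in at least 1 alternative. The variance models leave differences as they are and were run for the listed genes only. The filter and the replicate block likewise leave differences as they are, and median centring does so where array medians are equal. The share of values that kept their direction is therefore no measure of stability. Psat1, Slc7a11 and Fgf21 lay under the array median and gave no value with the filter. The cause of these shifts was not tested.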

Other observations

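Atf3, another transcription factor of the stress response, was picked out after its values were seen. It had signals of 5.90, 8.47, 5.30 and 6.05 in RictoraP2KO arrays, against 6.47, 6.15, 6.67 and 6.86 in control arrays. RictoraP2KO replicate 2 was the highest of the 8 arrays and the other 3 of its group were below every control, and the difference over all arrays was -0.11 (SE 0.592). It was -0.79 without RictoraP2KO replicate 2 (limma adjusted p = 0.813) and -0.92 without the 3 arrays in which another tissue stood out. Ppp1r15a, which encodes GADD34, was 5.54, 6.79, 5.24 and 5.99 in RictoraP2KO arrays, against 5.09, 5.56, 5.84 and 5.84 in control arrays.

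Of the pathway genes outside the list, the transsulfuration enzymes Cth and Cbs had the largest differences among those named, and neither passed the test. Cth was 4.62, 5.69, 4.09 and 4.71 in RictoraP2KO arrays, against 3.65, 4.29, 3.74 and 4.81 in control arrays. Cbs was 3.25, 4.25, 3.48 and 4.97 in RictoraP2KO arrays, against 3.28, 3.65, 3.96 and 3.46 in control arrays. Leaving out 1 array moved these differences by over 1.5 times, that of Cth to 0.35 without RictoraP2KO replicate 2 and that of Cbs to 0.07 without replicate 4. The arrays high for Cbs, RictoraP2KO replicates 4 and 2, were also those high for Chac1 and Sesn2.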
